A study of Rattus norvegicus with 8 samples.

Results

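The 12 genes described here encode components of the extracellular matrix. They comprise the 9 collagen chain genes whose symbols could be matched to the counts, the laminin gamma 1 chain gene Lamc1, and the matrix glycoprotein genes Tnn and Dmp1. The collagens were taken by the form of their symbols (Col, a type number, the letter a and a chain number), and the other 3 genes by name. The rule used no measured value, but the 12 genes were chosen with earlier results of these data known. Symbols were paired with 1998 of the 32623 gene IDs counted, and collagens beyond these 9, the chains of collagen IV among them, were not analysed here. All 12 genes passed the filter on low counts and were among the 14043 genes tested.

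RNA from retinal ganglion cells (RGCs) of Sprague Dawley rats was sequenced before birth, on embryonic day 21 (E21), and after it, on postnatal day 11 (P11), with 4 libraries per stage from independent litters. No treatment or genetic change is named for either stage. Retinas were dissociated with papain, of which more was used at P11, and cells were panned on an antibody that removed macrophages and then on an anti-Thy1 antibody, to which the RGCs were bound. The age of the animals and the amount of enzyme cannot be told apart in this design. Between 13899299 and 20116017 reads were counted on genes per library.

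The extracellular matrix consists of secreted proteins that form fibrils, networks and sheets around cells. Collagens are trimers of chains wound into a triple helix. Fibril-forming types I, III, V and XI build the cords of connective tissue, type VI forms beaded filaments beside them, and laminins with type XVIII collagen belong to basement membranes, the sheets under epithelia, around vessels and on the inner surface of the retina. Fibroblasts and the mural cells of vessels are known sources of fibrillar and type VI collagen, while neurons make part of the perineuronal matrix.

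Expression is given as CPM, the counts normalized to library size with the TMM factors of edgeR. A gene was called when its Benjamini-Hochberg adjusted p was below 0.01 in the quasi-likelihood test of edgeR and its log2 fold change, E21 over P11, lay beyond 1 in either direction. A negative log2 fold change therefore marks higher expression at P11. Of the 12 genes, 10 were called higher at P11, where 16.5% of all genes tested were, and Col26a1 was called higher at E21, where 8.16% were. Calls in either direction made up 24.7% of all genes tested and 11 of these 12. The log2 fold change had a median of -2.65 over the 12 genes and of 0.00 over all genes tested. The lowest P11 library exceeded the highest E21 library for 11 genes, as it did for 35.9% of all genes tested, and the reverse held for Col26a1, as it did for 35.4%. Summed over the 12 genes, expression was 98.5 ± 4.48 CPM (SD, n = 4) at E21 and 604 ± 118 (SD, n = 4) at P11, and the 9 collagens accounted for 62.4 ± 3.43 and 483 ± 104 CPM of these sums (SD, n = 4). In bulk RNA, fewer cells of a type and less RNA per cell cannot be told apart.

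**Figure D1:**
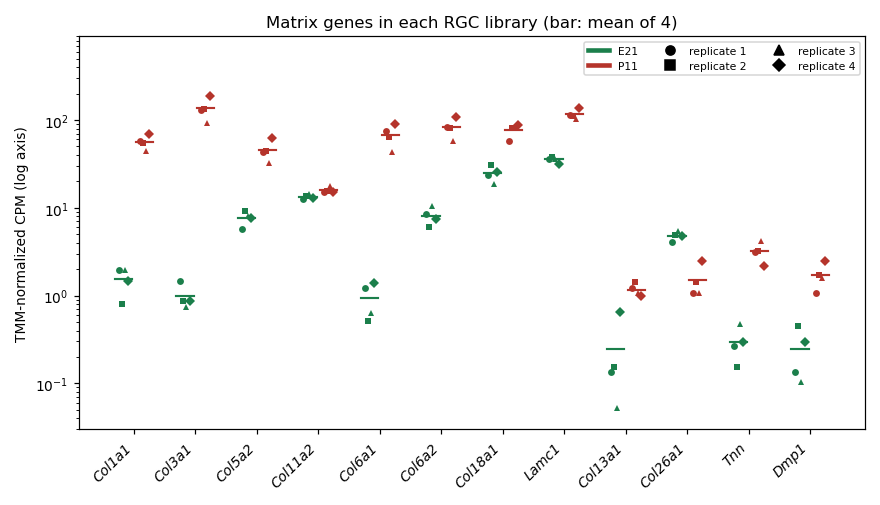
TMM-normalized CPM on a log axis of each of the 12 matrix genes in the 4 E21 libraries (green) and the 4 P11 libraries (red), with symbols for the replicate number and a bar for the mean of 4. Col3a1 lies between 0.735 and 1.47 CPM at E21 and between 93.0 and 189 at P11, while Col26a1 is the gene whose E21 libraries lie above its P11 libraries.

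The bases just before the start of transcription are shown for 5 of the genes, chosen to hold genes that rose, the gene that fell and the gene that was not called. They are taken from RefSeq on build GRCr8, where 9 of the 12 genes had an entry, and each is the 60 bases before the start, written 5′ to 3′ on the gene's strand, with motifs in capitals.
Col5a2 (chr9:55090152-55090211, minus strand): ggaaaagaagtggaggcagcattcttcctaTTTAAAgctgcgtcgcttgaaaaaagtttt
Tnn (chr13:74919790-74919849, minus strand): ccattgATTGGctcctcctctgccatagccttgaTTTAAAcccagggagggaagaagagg
Col26a1 (chr12:25429336-25429395, plus strand): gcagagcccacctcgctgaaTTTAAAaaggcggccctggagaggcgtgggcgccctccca
Col6a1 (chr20:11905630-11905689, plus strand): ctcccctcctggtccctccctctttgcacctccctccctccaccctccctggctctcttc
Col11a2 (chr20:4817649-4817708, minus strand): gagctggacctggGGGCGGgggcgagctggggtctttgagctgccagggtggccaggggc
The capitals mark TTTAAA, which reads the same on both strands, ATTGG, the complement of CCAAT, and GGGCGG, and all motifs were searched on both strands. TTTAAA, chosen after the sequences were seen, stood within these 60 bases in 3 of the 9 genes and in 2.78% of 33469 RefSeq promoters, and within 250 bases in the same 3 genes and in 12.3% of promoters. Of those 3 genes, Col5a2 and Tnn were higher at P11 and Col26a1 was higher at E21, so the motif was held by genes that moved in both directions. In the longer window, GGGCGG was held by 3 of the 9 genes and 30.5% of all promoters. CCAAT was held there by 1 of the 9 genes and 34.0% of all promoters. TATAAA was held by 1 of the 9 genes and 12.9% of all promoters. A match is a run of letters and not a measured binding site.

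Among the fibril-forming collagens, Col1a1, Col3a1 and Col5a2 were higher at P11 and Col11a2 was not called. Col3a1 (ENSRNOG00000003357), the chain of type III collagen found in vessel walls and soft connective tissue, was at 1.47, 0.861, 0.735 and 0.878 CPM in E21 replicates 1 to 4 and at 129, 132, 93.0 and 189 CPM in P11 replicates 1 to 4. All E21 libraries were low, P11 replicate 4 was the highest, and the stages were far apart. Its log2 fold change of -7.13 (SE 0.39, adjusted p = 2.37e-06) was the largest of the 12, and it corresponded to a level 139.7-fold higher at P11. At E21 these values rested on 12 to 22 reads per library.

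Col1a1 (ENSRNOG00000003897), the main chain of type I collagen in skin, bone and tendon, was at 1.94, 0.811, 1.94 and 1.46 CPM at E21 and at 56.9, 54.6, 44.0 and 68.8 CPM at P11, again in the order of the replicates. The libraries of the stages did not overlap, and P11 replicate 4 was again the highest and replicate 3 the lowest. Expression was 36.9-fold higher at P11 (log2 fold change -5.20, SE 0.23, adjusted p = 1.72e-08).

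Col5a2 (ENSRNOG00000003736), a chain of type V collagen that is built into type I fibrils and limits their width, was at 5.76, 9.12, 8.03 and 7.75 CPM at E21 and at 42.8, 43.8, 32.2 and 62.6 CPM at P11. P11 replicate 4 was again the highest and replicate 3 the lowest, and the rise was 5.87-fold (log2 fold change -2.55, SE 0.25, adjusted p = 3.75e-05). Col11a2 (ENSRNOG00000000463), a chain of the cartilage collagen XI, was at 12.7, 13.5, 14.4 and 13.0 CPM at E21 and at 15.3, 15.5, 17.7 and 15.1 CPM at P11. Each P11 library was above each E21 library, but by little, with a log2 fold change of -0.24 (SE 0.08, adjusted p = 0.0152) that passed neither threshold.

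Both type VI collagen genes among the 12 rose. Col6a1 (ENSRNOG00000001249) was at 1.21, 0.507, 0.630 and 1.39 CPM at E21, from 10 to 19 reads per library, and at 74.5, 63.9, 43.1 and 89.7 CPM at P11. Col6a2 (ENSRNOG00000001254) was at 8.50, 6.03, 10.4 and 7.46 CPM at E21 and at 83.1, 80.1, 57.2 and 108 CPM at P11. In both genes P11 replicate 4 was the highest and replicate 3 the lowest, and no E21 library came near a P11 library. The rise was 76.7-fold for Col6a1 (log2 fold change -6.26, SE 0.40, adjusted p = 5.52e-06) and 10.2-fold for Col6a2 (log2 fold change -3.34, SE 0.26, adjusted p = 1.66e-05).

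**Figure D2:**
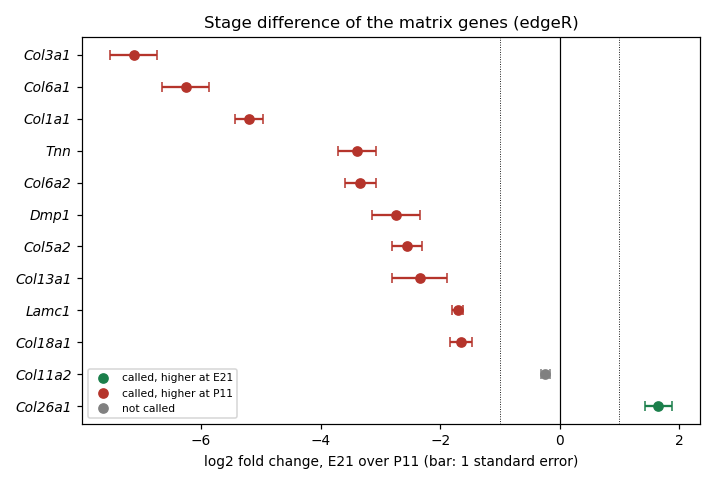
Log2 fold change, E21 over P11, of the 12 matrix genes from edgeR, with bars of 1 standard error and dotted lines at the threshold of 1 in both directions. Red points are called higher at P11, the green point is Col26a1 at 1.65, and the grey point is Col11a2 at -0.24.

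The 2 collagen genes of each of 3 pairs did not rise in proportion. The ratio of 2 genes within a library does not depend on how libraries are scaled, and the change of 3 such ratios between stages was tested with a two-sided exact permutation test over the libraries, where 4 against 4 allow no p below 0.0286. The log2 ratio of Col6a1 to Col6a2 counts went from -3.17 ± 0.72 (SD, n = 4) at E21 to -0.29 ± 0.10 (SD, n = 4) at P11, a 7.35-fold change. The log2 ratio of Col1a1 to Col3a1 went the other way, from 0.60 ± 0.61 to -1.25 ± 0.16 (SD, n = 4 each), a 3.59-fold change. Col5a2 and Col3a1, which are neighbouring genes in the rat genome, gave the largest change of the 3 pairs, and the log2 ratio of Col5a2 to Col3a1 went from 2.95 ± 0.69 to -1.58 ± 0.03 (SD, n = 4 each), a 23.0-fold change. In each of the 3 ratios the E21 and P11 libraries were fully separate, and the exact permutation test gave p = 0.0286, which was also the value after Benjamini-Hochberg adjustment over the 3. These ratios compare counts of genes of different length, so that only their change between stages can be read. Col5a2 and Col3a1 rose and fell together among the P11 libraries, where their log2 ratio stayed within a range of 0.06.

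**Figure D3:**
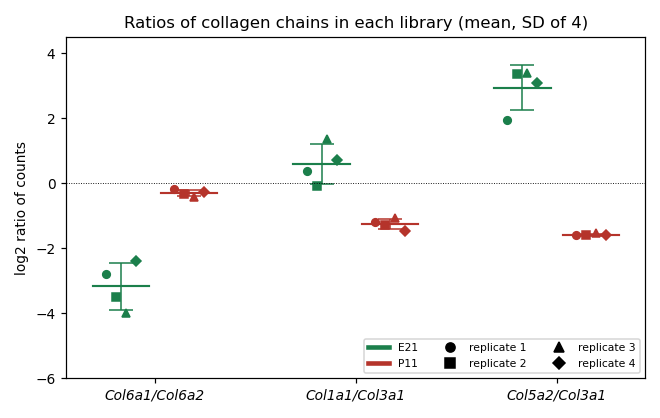
Log2 ratio of counts for 3 pairs of collagen chain genes in each library, with the mean and SD of 4 for E21 (green) and P11 (red). The stages do not overlap in any pair, and the P11 points of Col5a2 to Col3a1 lie between -1.59 and -1.53.

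The basement membrane genes Lamc1 and Col18a1 rose by a little over 3-fold each. Lamc1 (ENSRNOG00000002680), whose product is the gamma chain of most laminin trimers, was at 36.2, 37.7, 36.4 and 31.8 CPM at E21 and at 115, 110.4, 103 and 137 CPM at P11. The libraries of each stage lay close together and those of the stages far apart, for a 3.27-fold rise (log2 fold change -1.71, SE 0.09, adjusted p = 2.23e-09). Col18a1 (ENSRNOG00000001229), whose product carries the fragment endostatin, was at 23.5, 31.0, 18.6 and 25.9 CPM at E21 and at 57.3, 81.8, 83.4 and 87.2 CPM at P11. Unlike in the fibrillar chains, P11 replicate 1 was the lowest, and replicates 2, 3 and 4 were close to each other. The rise was 3.14-fold (log2 fold change -1.65, SE 0.19, adjusted p = 0.000133). Col18a1 lies near Col6a1, with Slc19a1 and Pcbp3 between them, and neither of these was called (log2 fold changes of 0.49 and -0.06).

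Tnn and Dmp1 were present at low counts and rose. Tnn (ENSRNOG00000002548), which encodes tenascin N, a glycoprotein of bone and tumour stroma, had 4, 3, 9 and 4 reads at E21 and 47, 55, 66 and 40 at P11. It rose from 0.296 ± 0.132 to 3.20 ± 0.821 CPM (SD, n = 4 each), or 10.5-fold (log2 fold change -3.39, SE 0.32, adjusted p = 5.06e-08), and here P11 replicate 3 was the highest and replicate 4 the lowest. Dmp1 (ENSRNOG00000002167), a phosphoprotein of bone and dentin, had 2, 9, 2 and 4 reads at E21 and 16, 29, 25 and 45 at P11. The stages did not overlap, and the rise was 6.70-fold (log2 fold change -2.74, SE 0.40, adjusted p = 8.46e-06). At these counts, 3 reads correspond to between 0.152 and 0.219 CPM, depending on the depth of the library. The counting intervals given further on cover counting error only, since the reads carry no molecular identifiers.

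Among the remaining collagens, Col13a1, a membrane-spanning collagen of adhesion sites such as the neuromuscular junction, rose, and Col26a1 fell. Col13a1 (ENSRNOG00000000552) had 2, 3, 1 and 9 reads at E21 and 18, 24, 17 and 18 at P11. E21 replicate 4 stood above the other E21 libraries, and without it the log2 fold change moved from -2.34 (SE 0.46, adjusted p = 0.000196 in edgeR) to -3.30 (adjusted p = 7.24e-06). Col26a1 (ENSRNOG00000001422), a secreted collagen with an EMI domain, was at 4.08, 4.92, 5.46 and 4.83 CPM at E21 and at 1.08, 1.42, 1.08 and 2.45 CPM at P11. The highest P11 library, replicate 4, was still below the lowest E21 library. Expression was 3.14-fold higher at E21 (log2 fold change 1.65, SE 0.23, adjusted p = 5.54e-06).

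Within P11, the matrix genes varied together across libraries in part. P11 replicate 4 was the highest P11 library for 9 of the 12 genes. It was so for 29.4% of all genes tested and for 30.4% of those called higher at P11. P11 replicate 3 was the lowest for 6 of the 12, namely Col1a1, Col3a1, Col5a2, Col6a1, Col6a2 and Lamc1, all called higher at P11. It was so for 21.9% of all genes tested and for 32.0% of those called higher at P11. Tnn and Col11a2 had the opposite order, with replicate 3 the highest and replicate 4 the lowest. With P11 replicates 3 and 4 both left out, a setting chosen after the values were seen, the counts of called genes were still 10 higher at P11 and 1 higher at E21.

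**Figure D4:**
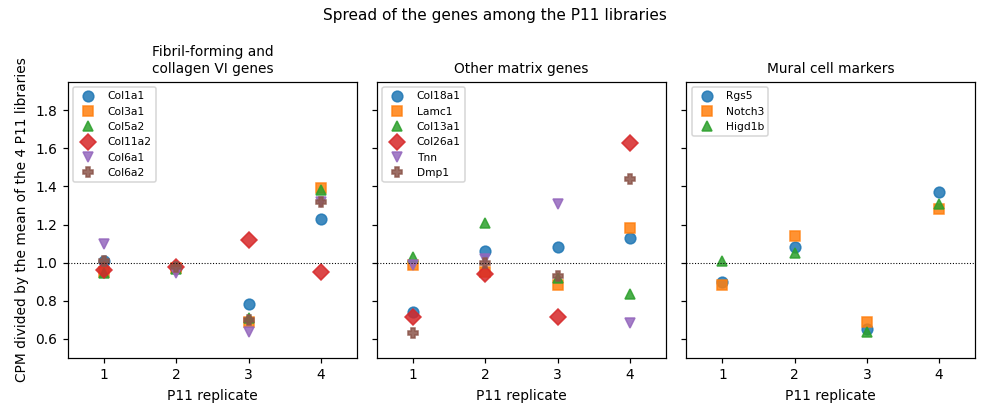
CPM of each gene in the 4 P11 libraries divided by the mean of the 4, with the genes grouped by role into the fibril-forming and collagen VI genes (left), the other matrix genes (middle) and the paired markers of mural cells (right). Replicate 4 is the highest and replicate 3 the lowest for every gene of the left panel except Col11a2, for Lamc1 in the middle panel and for the 3 mural markers, while Col11a2 and Tnn show the opposite.

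Of 9 markers of mural cells, the pericytes and smooth muscle cells of vessels, 3 were paired with an ID, and all 3 were called higher at P11. Of all genes tested, 16.5% were called higher at P11 and 8.16% higher at E21. These shares are also the background for the other marker lists. The other mural markers, Pdgfrb and Acta2 among them, were not analysed here. Rgs5, a regulator of G protein signalling in pericytes, was at 1.47, 0.811, 1.05 and 2.56 CPM at E21 and at 208, 251, 151 and 317 CPM at P11 (log2 fold change -7.38). Notch3, a receptor of vascular smooth muscle, rose from 2.12 ± 0.234 to 176 ± 46.8 CPM (SD, n = 4 each, log2 fold change -6.39). Higd1b rose from at most 0.525 CPM at E21 to between 5.71 and 11.8 CPM at P11 (log2 fold change -4.42). The summed level of the 3 was between 3.09 and 5.27 CPM at E21 and between 278 and 554 CPM at P11, and P11 replicate 4 was the highest and replicate 3 the lowest for each, as for Col1a1, Col3a1, Col5a2, Col6a1, Col6a2 and Lamc1. Their part in the result was not tested.

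Of 8 endothelial markers, 4 were paired, with a summed level of 20.0 to 23.9 CPM at E21 and 28.9 to 42.3 CPM at P11. Notch4, which was not called (log2 fold change -0.12), made up 21.4 ± 1.69 and 23.2 ± 4.75 CPM of these sums (SD, n = 4 each). The vascular endothelial growth factor receptors Flt1 and Flt4 were both called higher at P11 (log2 fold change -4.44 each). Flt1 was at 0.152 ± 0.111 CPM at E21 and 3.65 ± 1.25 at P11, and Flt4 at 0.320 ± 0.243 and 7.21 ± 0.640 (SD, n = 4 each). Erg had 2 reads over the E21 libraries and 22 over the P11 libraries. Flt1 and Flt4 had no read in E21 replicate 1. Of 8 fibroblast markers, 4 were paired, with a summed level of 17.5 to 22.7 CPM at E21 and 17.9 to 31.4 CPM at P11. Prrx1, a mesenchymal transcription factor, and Ddr2, a collagen receptor, were called higher at P11 (log2 fold changes of -5.77 and -3.79), and Pdgfra and Pi16 were called higher at E21 (1.26 and 1.14). Prrx1 rested on 6 reads over the E21 libraries against 354 over the P11 libraries, a ratio of 60.4 after scaling for depth (95% counting interval 27.5 to 166). In Prrx1 and in the uncalled Notch4, P11 replicate 4 was the highest and replicate 3 the lowest, as in the mural markers. In the other paired fibroblast and endothelial markers, P11 replicate 1 was the lowest. The part of these cell types in the result was not tested.

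Of 8 RGC markers only 2 were paired, and Pou4f1, Pou4f2, Rbpms, Thy1, Sncg and Nefl were not analysed here. The 2 are general neuronal genes and cannot tell RGCs from other neurons. The paper reports Pou4f1 and Rbpms as highly enriched over markers of several other retinal cell types. The types it names are photoreceptors, bipolar, amacrine and Müller cells, astrocytes and microglia. Mural cells, endothelial cells and fibroblasts are not among them. Rbfox3, a marker of neurons, was at 119 ± 6.78 CPM in E21 and 126 ± 7.76 CPM in P11 libraries (SD, n = 4 each), and Uchl1, a ubiquitin hydrolase abundant in neurons, at 1603 ± 26.5 and 1382 ± 69.0 CPM. Neither was called (log2 fold changes of -0.08 and 0.21). For Uchl1 every E21 library lay above every P11 library, as held for 35.4% of all genes tested.

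Genes whose products assemble with, bind or modify these matrix proteins were taken from 5 lists of 93 genes, of which 29 were paired with an ID and 28 were tested. Of the 28, 16 were higher at P11, 3 were higher at E21 and 9 were not called, with a median log2 fold change of -1.69. Over all genes tested, 16.5% were higher at P11 and 8.16% at E21, and the share higher at E21 was near this background. These shares are also the background for the counts of each list given next. Like the 12 genes above, these lists were drawn up with earlier results of these data known.

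Among 7 basement membrane genes tested, 4 were higher at P11 and 1 at E21. The nidogens, which link laminin to collagen IV, were among those higher at P11. Nid1 was at 12.1, 12.1, 10.4 and 9.36 CPM at E21 and at 240.5, 255, 172 and 361 CPM at P11 (log2 fold change -4.54, SE 0.29, adjusted p = 6.49e-06 in edgeR), and Nid2 rose from 0.699 ± 0.317 to 20.3 ± 5.47 CPM (SD, n = 4 each, log2 fold change -4.88). P11 replicate 4 was the highest and replicate 3 the lowest in both. Egfl6, a secreted protein with EGF repeats, was higher at E21, at 4.80 ± 0.366 against 1.02 ± 0.0987 CPM (SD, n = 4 each, log2 fold change 2.22). The laminin alpha 4 gene Lama4 had a log2 fold change of 0.92 and Fras1 one of -0.25, and neither was called.

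Of 6 leucine-rich repeat and proteoglycan genes, 4 were higher at P11. These were Fmod, whose product fibromodulin binds type I collagen (log2 fold change -3.43), Impg2, a proteoglycan of the matrix around photoreceptors (-2.80), Chad (-1.73) and Prelp. Prelp had 2 reads over the E21 libraries and 136 over the P11 libraries, a ratio of 69.6 after scaling for depth (95% counting interval 18.9 to 580.4). Optc, the gene of opticin in the vitreous, was higher at E21 (log2 fold change 1.15), and Prg4 was not called (-0.48). The 7 paired markers of photoreceptors and bipolar cells summed to 46.0 to 54.6 CPM at E21 and 109 to 122 CPM at P11. Prkca alone made up 38.3 ± 2.68 and 87.5 ± 3.23 CPM of these sums (SD, n = 4 each). Of the 6 markers tested, 3 were higher at P11 and 3 were not called, with log2 fold changes from -5.69 to 0.82. In Impg2, as in Pde6b and Tulp1, P11 replicate 3 was the highest and replicate 1 the lowest. No other of the 7 markers had this order. The part of these cells in the values of Impg2 was not tested.

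Tenascin R, a relative of Tnn in perineuronal nets, was higher at P11 too. Tnr was at 6.83, 6.59, 4.93 and 4.90 CPM at E21 and at 152, 143, 149 and 127 CPM at P11 (log2 fold change -4.61, SE 0.09, adjusted p = 1.35e-14 in edgeR). Its P11 libraries lay close together, and replicate 4, which was the highest for most of the 12 genes, was the lowest here as it was for Tnn. Tnr and Tnn are separated by a single coding gene in the rat genome. Ibsp, the bone sialoprotein gene next to Dmp1, changed in the opposite direction to Dmp1 and was higher at E21, at 1.77 ± 0.602 against 0.599 ± 0.195 CPM (SD, n = 4 each, log2 fold change 1.56, SE 0.31).

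Of 6 elastic fibre and other glycoprotein genes tested, 4 were higher at P11. Eln, the gene of elastin, was at 3.82, 3.65, 3.52 and 4.02 CPM at E21 and at 51.9, 51.6, 50.2 and 43.9 CPM at P11 (log2 fold change -3.72, SE 0.09, adjusted p = 1.87e-15 in edgeR). Its libraries were tight within both stages, and P11 replicate 4 was the lowest. Ccdc80, a secreted protein that binds matrix, was at 0.469, 0.861, 0.367 and 0.439 CPM at E21 and at 51.1, 55.8, 37.7 and 84.9 CPM at P11 (log2 fold change -6.70, SE 0.46, adjusted p = 8.39e-06). It had the order of the P11 libraries seen in Col3a1, Col5a2, Nid1, Rgs5, Notch3, Higd1b, Prrx1 and Notch4. Igfbp7 (log2 fold change -2.91) and Olfml2b (-1.65) were also higher at P11, Abi3bp (-0.07) and Mia (0.35) were not called, and Efemp1 did not pass the filter on low counts.

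Of 7 genes of collagen synthesis and matrix receptors, 3 were higher at P11. They were Adamts14, a protease that trims procollagen, with 7 reads over the E21 libraries and 85 over the P11 libraries (log2 fold change -3.54), Ddr2, which is also in the fibroblast list, and Antxr2, a receptor that binds collagen VI (log2 fold change -2.73). Plod3, an enzyme that hydroxylates collagen lysines, had a log2 fold change of 0.53, and Fam20c, the kinase that phosphorylates Dmp1 and related secreted proteins, one of 0.60. The laminin receptor chains Itga6 and Itga3 had log2 fold changes of 0.93 and 0.10. None of these 4 genes passed the fold threshold. Each had every E21 library above every P11 library, as held for 35.4% of all genes tested.

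**Figure D5:**
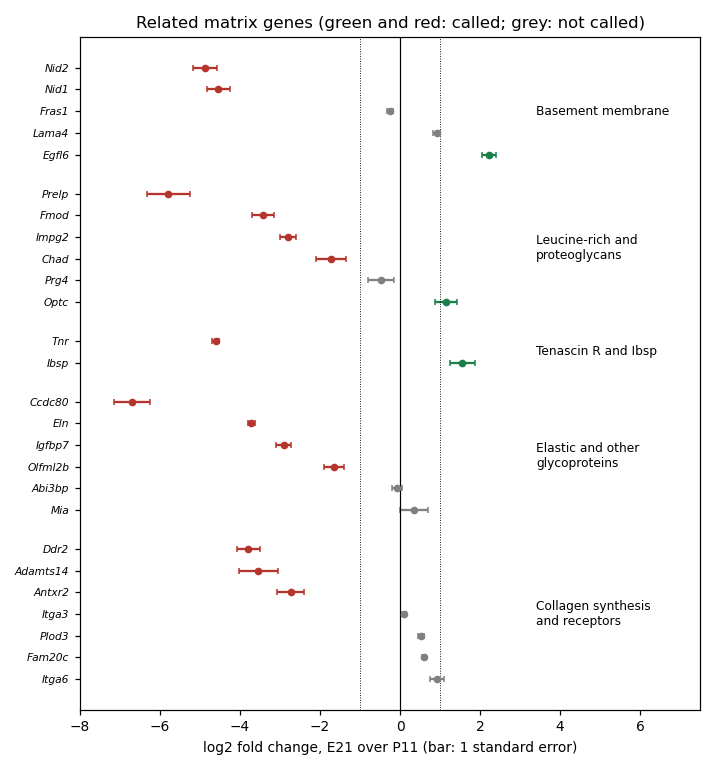
Log2 fold change, E21 over P11, of 26 of the 28 related matrix genes tested, grouped by list, with bars of 1 standard error and dotted lines at the threshold of 1 in both directions. Red points are 14 genes called higher at P11, green points the 3 called higher at E21 and grey points the 9 not called.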

How the data were processed

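Per the labels and the methods of the study, the authors prepared SMARTer libraries after removal of ribosomal RNA. Adapters were trimmed (cutadapt 1.16), reads were quality-filtered (PRINSEQ), aligned to Rnor_6.0 (STAR 2.5.3a) and counted (HTSeq 0.6.1), and the authors deposited raw counts per gene ID for each library. The annotation release and the strand setting are not given in the sources used here. Where genes overlap, some reads may therefore be assigned to the wrong gene or counted as ambiguous. Records that named no gene (unassigned, ambiguous or multiply aligned) were left out. They made up 56.78% to 58.42% of the records at E21 and 51.73% to 54.81% at P11. Multiply aligned records alone made up 37.44% to 42.21% and 31.72% to 36.34%. These shares differ with stage, and their part in the results was not tested. The thresholds on p and fold are those of the study's methods.

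From the counts, genes were filtered with filterByExpr, scaled by TMM and tested with edgeR 4.0.16 (quasi-likelihood, robust, stage only, all 8 libraries) in R 4.3.3, with Benjamini-Hochberg adjustment over 14043 genes. Each standard error is the absolute log2 fold change over the root of F. DESeq2 1.42.0 served as an alternative, and ratios (0.5 added to each count) were tested with scipy 1.17.1. Both gene tests were first run on simulated counts with the same dispersion for every gene. That run says little about genes whose libraries spread widely within a stage. Alternatives were other scalings, filters, tests and thresholds, a replicate block, and libraries left out. Gene symbols came from the study's gene table, of which only a part was at hand. All 12 genes, the called genes of the related lists (except 2 that enter the counts but are not reported here) and the paired cell type markers were named by rule, uncalled related genes and Slc19a1 and Pcbp3 beyond it. The 12 genes and all lists were chosen with earlier results of these data known.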

Additional observations from a re-analysis of the deposited data

Results flagged for a closer look

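Of 30 groups of 4 libraries examined (each of the 12 genes and 3 ratios at each stage), 3 held a library whose gap to its nearest neighbour took more of the group's range than Dixon's critical value at the 95% level. Chance flags about 1 in 20 groups. Col11a2 was at 17.7 CPM in P11 replicate 3, above the other P11 libraries by 0.83 of the range. Col13a1 was at 0.658 CPM in E21 replicate 4, from 9 reads, above the other E21 libraries by 0.836 of the range. The log2 ratio of Col5a2 to Col3a1 was -1.53 in P11 replicate 3, the highest of 4 by 0.871 of a range of only 0.06.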

How the results depend on the processing

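The calls of the 12 genes (10 higher at P11, 1 at E21) stayed within 1.5 times of these counts under all 18 alternatives, and no gene changed direction or lost its call where it was tested. Requiring at least 10 counts in every library left 9 of the 12, of which 7 were higher at P11. It also lowered the related genes higher at P11 from 16 of 28 tested to 8 of 17. The cell type markers higher at P11 went from 11 of 20 tested to 3 of 11. Both counts fell because genes low at E21 were no longer tested. Over all genes, this filter lowered the calls higher at P11 from 2316 of 14043 to 1523 of 12532. Tested against the fold threshold with glmTreat, 1 related gene and 1 marker were higher at E21, against 3 and 3, and over all genes 668 against 1146. Over the fits that each leave out 1 library, the related genes higher at E21 numbered 3 to 5, with 5 without P11 replicate 4. The 3 ratios kept their direction, with differences of -3.14 to -2.60 (Col6a1 to Col6a2), 1.59 to 2.07 (Col1a1 to Col3a1) and 4.38 to 4.86 (Col5a2 to Col3a1) with a library left out, where 3 against 4 allow no exact permutation p below 0.0571. With the replicate number as a block, the differences were -2.88, 1.84 and 4.53, each with an exact sign-flip p of 0.125, the smallest that 4 pairs allow. The block left 2316 and 1147 genes called over all genes and changed no other call given here. Same-number correlations lay between -0.0268 and 0.078 and the others between -0.0931 and 0.0661. Of 4 E21 libraries, 2 correlated best with their own number. Correlations this small can neither show nor exclude a pairing of the libraries by replicate number. Counts of a few reads limit the E21 levels of Col13a1, Tnn, Dmp1, Prelp and Adamts14.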

Other observations

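Markers of other retinal cells changed in both directions. Of 8 astrocyte and Müller cell markers, 4 were paired. Gja1, the gap junction gene of astrocytes, was at 26.8 ± 4.15 CPM at E21 and 0.885 ± 0.477 at P11 (SD, n = 4 each, log2 fold change 4.92 in edgeR), while S100b had 2 reads over the E21 libraries and 106 over the P11 libraries, a ratio of 54.2 after scaling for depth (95% counting interval 14.6 to 454). Gfap had at most 0.219 CPM in any library and Sox9 at most 0.735 CPM, and neither passed the filter on low counts. The summed level of the 4 was between 24.6 and 33.7 CPM at E21 and between 1.91 and 3.49 at P11. Of 7 microglia markers, 4 were paired and none passed the filter, with sums of 0.469 to 0.735 CPM at E21 and 0.672 to 1.21 at P11.

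Of 8 photoreceptor and bipolar cell markers, 7 were paired, with sums of 46.0 to 54.6 CPM at E21 and 109 to 122 at P11. Most of these sums was Prkca, at 38.3 ± 2.68 CPM at E21 and 87.5 ± 3.23 at P11 (SD, n = 4 each). The rod phosphodiesterase gene Pde6b rose from 0.123 ± 0.115 to 6.52 ± 1.77 CPM (SD, n = 4 each, log2 fold change -5.69, and -6.28 without E21 replicate 1), Tulp1 had a log2 fold change of -4.01 and Prkca one of -1.19, and these 3 were called higher at P11. Rcvrn (-0.85), Arr3 (-0.30) and Grm6 (0.82) were not called, and Pcp2 did not pass the filter. In Pde6b and Tulp1, P11 replicate 3 was the highest and replicate 1 the lowest, which is not the order of Col1a1, Col3a1, Col6a1 or Col6a2. The part of these cells in the matrix results was not tested.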
